A study of Mus musculus with 12 samples.

Results

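The clustered replication-dependent histone genes were examined here as every row of the mouse count table whose gene symbol begins with Hist1h, Hist2h, Hist3h or Hist4h, which gave 50 of 12145 rows. There were 6 rows of class H1, 13 of H2A, 10 of H2B, 9 of H3 and 12 of H4. Of the 50, 42 belong to the Hist1 cluster on chromosome 13, 5 to Hist2 on chromosome 3 and 3 to Hist3 on chromosome 11, and 0 rows carried a Hist4 symbol. Another 20 of the 70 such symbols in the GENCODE M21 annotation had no row and are not analysed here. Hist1h2aj and Hist3h2bb-ps are annotated as pseudogenes.

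RNA was measured in cortical cultures of C57BL6 mouse embryos at E16.5-E17.5. All cultures carried a lentivirus, added on day in vitro 6 at a total multiplicity of infection of 2: an empty virus, or one carrying miR-29 (named miR-29c elsewhere in the labels). On day in vitro 14 they underwent oxygen-glucose deprivation (OGD), a culture model of ischemia, for 3 h with 4 h of recovery, or a sham procedure. The 4 groups are called sham-empty, OGD-empty, sham-miR-29 and OGD-miR-29, and each held 3 cultures from separate dissection days. The column of sham-empty replicate 3 did not hold read counts (its values for the 50 rows were 1 to 4) and was left out, so that sham-empty had n = 2 and the other groups n = 3. Markers of several cell types had a row: 11 of 11 for neurons and 7 of 8 for astrocytes, without Gfap. There were 3 of 8 for microglia, 3 of 7 for neural progenitors, 3 of 7 for the oligodendrocyte lineage and 0 of 6 for endothelial and mural cells. A row need not mean that the cell type was present.

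Replication-dependent histone genes encode the core histones H2A, H2B, H3 and H4, which form the nucleosome, and the linker histone H1, which binds the DNA between nucleosomes. Their transcription is coupled to S phase through the coactivator NPAT, and most of their mRNAs end in a conserved stem-loop bound by the stem-loop binding protein SLBP in place of a poly(A) tail. Neurons have left the cell cycle, while astrocytes, progenitors and microglia in a culture can divide. Some of these genes, among them Hist1h1c and Hist1h2bc, also give polyadenylated transcripts in non-dividing cells, and libraries made from total RNA after removal of ribosomal RNA, as here, can hold both forms.

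The stem-loop was found in the annotated transcript models of 34 of the 50 rows. Absence from a model need not mean absence from the gene. The Hist1h4k model, without it, has 312 nt, while in the Hist1h4f model it starts at base 343. Across all 21877 protein-coding symbols, 48 held it (0.219%), and 4 of these were not Hist genes (H2afx, H2bfm, Syncrip and Trim17). The sequences below, from GENCODE M21 transcripts, show 1 member for each of the 6 versions found, with the stem and loop in capitals and 5 bases on either side.
Hist1h1c: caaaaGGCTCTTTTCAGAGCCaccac
Hist1h3c: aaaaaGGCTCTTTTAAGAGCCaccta
Hist2h2ac: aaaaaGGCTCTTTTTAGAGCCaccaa
Hist1h4c: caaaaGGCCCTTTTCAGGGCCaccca
Hist1h4b: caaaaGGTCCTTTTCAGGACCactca
Hist2h4: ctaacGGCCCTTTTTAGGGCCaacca

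The Hist1h1c version was shared by 17 members of H1, H2A, H2B and H3, and the Hist1h3c version by 6 members of H1, H2B and H3. The Hist1h4c version (6 members), the Hist1h4b version (2) and the Hist2h4 version (2) were found in H4 members. The Hist2h2ac version was found in that member alone. The stem-loop lay within 100 nt of the end of the model in 17 members, as in Hist1h3c, and farther from it in the other 17, as in Hist1h1c, whose model runs 840 nt past it.

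Promoters were described by motif, and a link between a motif and a change in level was not tested. RefSeq promoter sequence (GRCm38.p6) was matched for 43 members, and the 250 bases before the gene start were searched on both strands. The CCAAT box (CCAAT or ATTGG) was present in 35 of 43 (81.4%), against 34.5% of 27025 genes. It was present in 32 of 32 promoters of H1, H2A, H2B and H3 genes and in 3 of 11 of H4 genes. The TATA box letters (TATAAA or TTTATA) were present in 24 of 43 (55.8%), against 13.0% of genes. The octamer (ATTTGCAT or ATGCAAAT) was present in 8 of 43 (18.6%), 4 in H2A and 4 in H2B genes, against 1.61% of genes. No motif's letters contain those of another. The promoters are not all separate sequences, since those of neighbouring genes on opposite strands can overlap. Hist1h2ae and Hist1h2bg share a stretch whose octamer was counted for both, once in H2A and once in H2B. The promoters of 3 members are shown over the 200 bases before the RefSeq gene start, 5′ to 3′ on the gene's strand, with motif matches in capitals: Hist1h1c (chr13:23738607-23738806, plus strand) with a CCAAT box, Hist1h4c (chr13:23698459-23698658, minus strand), an H4 gene with CCAAT, and Hist2h2bb (chr3:96269500-96269699, plus strand) with CCAAT and octamer.
Hist1h1c: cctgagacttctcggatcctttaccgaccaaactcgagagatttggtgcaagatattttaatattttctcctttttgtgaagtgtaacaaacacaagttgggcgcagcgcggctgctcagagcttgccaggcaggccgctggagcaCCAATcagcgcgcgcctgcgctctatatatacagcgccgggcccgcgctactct
Hist1h4c: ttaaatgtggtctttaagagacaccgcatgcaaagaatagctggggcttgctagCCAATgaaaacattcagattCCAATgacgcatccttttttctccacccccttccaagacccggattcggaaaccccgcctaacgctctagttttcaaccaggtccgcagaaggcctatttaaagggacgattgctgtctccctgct
Hist2h2bb: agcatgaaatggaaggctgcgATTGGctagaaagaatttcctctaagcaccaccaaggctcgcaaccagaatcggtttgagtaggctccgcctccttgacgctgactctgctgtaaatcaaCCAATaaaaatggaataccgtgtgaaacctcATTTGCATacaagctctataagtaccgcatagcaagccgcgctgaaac

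Neighbouring rows were not separate measurements. The counts of neighbouring genes overlapped, with regions that appear to run to 10 kb downstream of a gene. Of the 50 members, 42 had a neighbouring row holding at least 0.5 of their own count, and 64 pairs of members had overlapping regions, 51 of them pairs of different classes. Hist1h2ap (H2A) and Hist1h4n (H4) held the same count in 11 of 11 libraries, 138 reads in all. Hist1h2ao (H2A) and Hist1h4m (H4) were equal in 10 of 11. Hist1h1c and Hist1h3c, which lie on opposite strands, held 1441 and 1256 reads in total. Hist1h2bg, Hist1h2ad, Hist1h3d and Hist1h4d held 836, 678, 750 and 726 reads in 1 stretch of the plus strand. Reads of a histone gene, of a neighbour in another class and of a neighbouring non-histone gene such as Trim17 beside Hist3h2a or Bola1 beside Hist2h2ac cannot be told apart here. Counted as stretches of overlapping regions, the 50 rows form 24 stretches on a single strand, or 13 over both strands. Near-identical coding sequence adds to this: a median of 46.4% of a member's 50-base stretches also occurred in another gene's transcripts.

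Depth was low. Library totals ran from 1337564 to 6616920 counts, of which 57.6% to 84.1% lay in rows of the mitochondrial genome, and the remaining counts numbered 231500 to 1362484. The median count of a histone row was 9 to 37 per library, and no row was at 0 in any library. Levels below are in CPM, the count scaled to library size, after TMM scaling. They are not per length, so they are compared between libraries and not between genes.

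The summed level of the 50 rows was lower in the OGD-empty libraries than in every other library. It stood at 905 and 778 CPM in sham-empty, at 814, 651 and 845 in sham-miR-29, at 373, 345 and 370 in OGD-empty, while OGD-miR-29 libraries stood at 594, 683 and 694. OGD-miR-29 lay between, overlapping sham-miR-29 and not sham-empty. Reads counted for several rows enter this sum more than once. As a share of counts outside the mitochondrial rows, the sum was 0.355% to 0.393% in sham-empty, 0.302% to 0.398% in sham-miR-29, 0.129% to 0.177% in OGD-empty and 0.275% to 0.321% in OGD-miR-29, in the same order. Cell types were not separated, so fewer cells of a type and less RNA per cell cannot be told apart.

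By class, the mean level in sham-empty and in OGD-empty was 158 ± 24.7 (SD, n = 2) and 62.9 ± 9.65 CPM (SD, n = 3) for H1 rows. H2A rows stood at 134 ± 11.4 and 69.5 ± 3.26, and H2B rows at 190 ± 26.5 and 92.1 ± 6.51. H3 rows stood at 210 ± 13.1 and 74.0 ± 5.79, and H4 rows at 150 ± 14.2 and 64.1 ± 3.10. In each class the highest OGD-empty library was below the lowest library of each of the other 3 groups. Sham-miR-29 stood at 148 ± 14.5 CPM for H1, 124 ± 28.2 for H2A, 173 ± 17.3 for H2B, 186 ± 19.5 for H3 and 139 ± 26.6 for H4 (SD, n = 3). OGD-miR-29 stood at 103 ± 0.352 CPM for H1, 124 ± 15.4 for H2A, 173 ± 20.4 for H2B, 132 ± 5.88 for H3 and 125 ± 15 for H4 (SD, n = 3). H1 and H3 sums in OGD-miR-29 were below every sham library, while those of H2A, H2B and H4 overlapped the sham libraries.

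**Figure D1:**
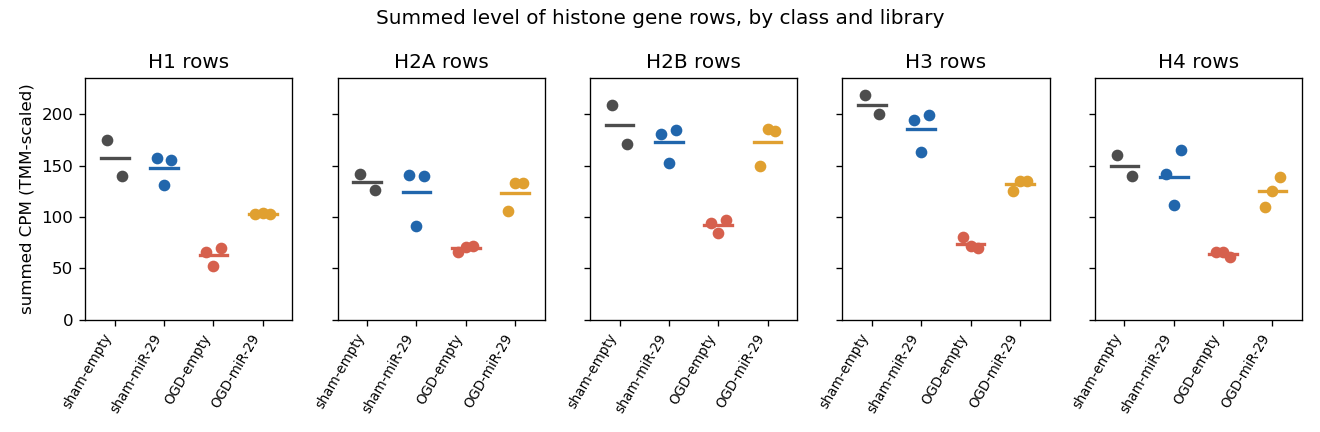
Summed CPM (vertical axis, TMM-scaled) of the rows of each histone class in each library, with a point per library and a bar at the group mean. In each panel the 3 OGD-empty points lie below all other points, and the H1 and H3 sums of OGD-miR-29 lie between OGD-empty and the sham groups.

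The first comparison asks what OGD did to these transcripts under the empty virus. In OGD-empty against sham-empty, 23 of 50 histone rows fell and 0 rose, at an adjusted p under 0.05 in edgeR's quasi-likelihood test over 12119 genes. Over all genes tested, 3.61% were called lower and 1.48% higher. The fitted log2 fold change was below 0 for 50 of 50 rows, with a median of -1.21, against 0.02 over all genes. The calls came from every class: 5 of 6 H1 rows, 3 of 13 H2A, 5 of 10 H2B, 6 of 9 H3 and 4 of 12 H4. Of the 20 rows with a mean count of 30 or more, 18 were called, and of the 30 rows below that, 5. Counted by stretch, 11 of 24 single-strand stretches, and 6 of 13 over both strands, held a called row.

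**Figure D2:**
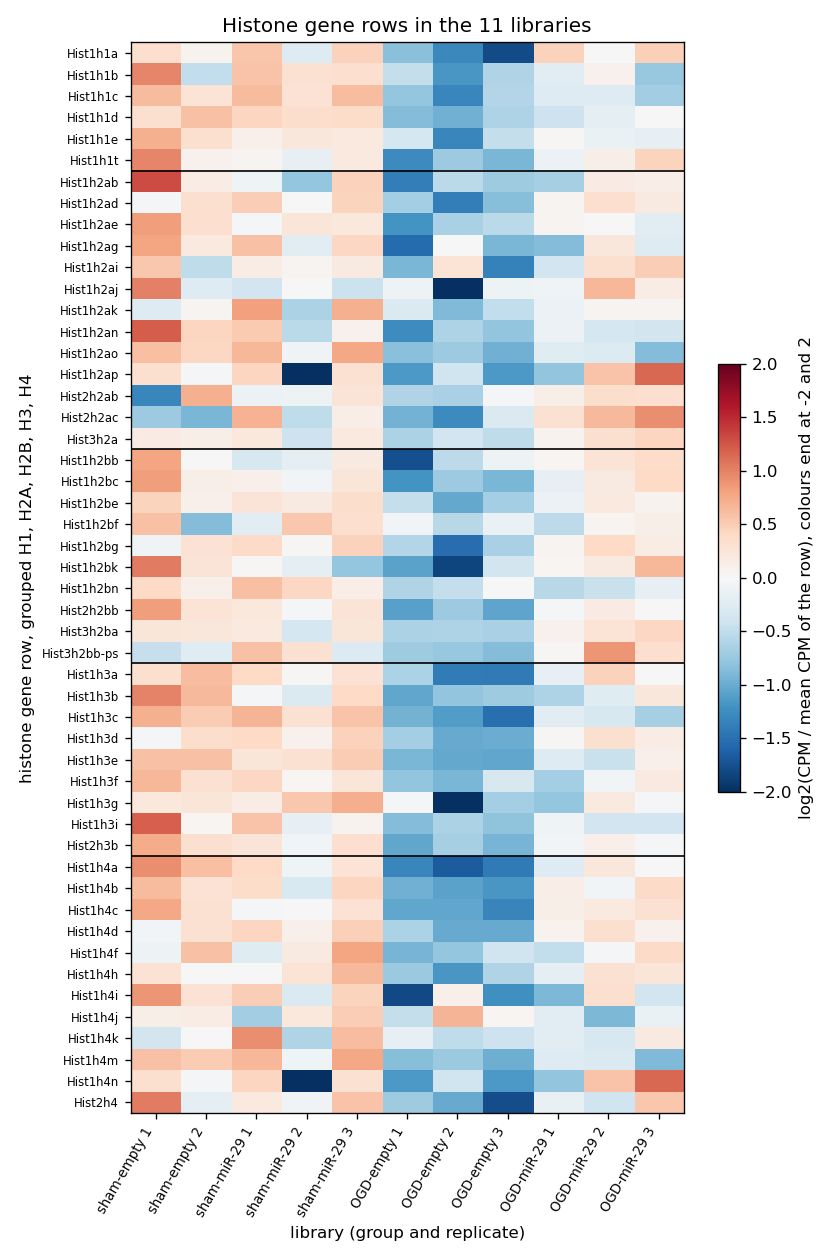
Level of each of the 50 histone rows (vertical axis, grouped by class) in each of 11 libraries (horizontal axis), as log2 of CPM over the row's mean CPM, with colours ending at -2 and 2. The 3 OGD-empty columns are blue in most rows, and the sham and OGD-miR-29 columns are mostly near white or red.

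Among linker histones, Hist1h1c (ENSMUSG00000036181.2, chr13:23738808-23740367, plus strand) stood at 72.6 and 56.7 CPM in sham-empty and 72.4, 57.3 and 72.0 in sham-miR-29. It stood at 27.3, 19.0 and 31.1 in OGD-empty and at 39.3, 39.0 and 28.8 in OGD-miR-29. The OGD-empty libraries were below all sham libraries and overlapped OGD-miR-29. It fell under the empty virus, with a log2 fold change of -1.31 ± 0.25 (SE, adjusted p = 0.00531). Hist1h1d stood at 30.8 and 37.0 CPM in sham-empty and at 13.6, 12.6 and 16.1 in OGD-empty, with no overlap (-1.29 ± 0.24, adjusted p = 0.00546). Hist1h1t, known as a testis linker histone, stood at 27.8 and 15 CPM in sham-empty and at 5.87, 8.58 and 7.50 in OGD-empty (-1.55 ± 0.33, adjusted p = 0.0123). Its row is uncertain, since Hist1h4c, on the opposite strand within the 10 kb downstream, held 1.37 times its count. Hist1h1a and Hist1h1e also fell (-1.31 ± 0.37 and -1.10 ± 0.31), and Hist1h1b, with a mean count of 11.4, had -0.90 and an adjusted p of 0.289.

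The 2 lowest adjusted p-values of the comparison among histone rows were in H3 genes. Hist1h3c (ENSMUSG00000069310.4, chr13:23744973-23745602, minus strand) stood at 67.6 and 59.0 CPM in sham-empty, at 66.0, 51.1 and 61.7 in sham-miR-29, at 21.5, 19.0 and 14.5 in OGD-empty, while OGD-miR-29 libraries stood at 35.5, 33.1 and 26.0. The groups separated fully into sham, then OGD-miR-29, then OGD-empty. Its log2 fold change under the empty virus was -1.76 ± 0.24 (adjusted p = 0.00127). Hist1h3e (chr13:23561534-23562369, minus strand) stood at 49.7 and 49.8 CPM in sham-empty, at 39.1, 40.7 and 46.8 in sham-miR-29, at 17.6, 16.3 and 16.1 in OGD-empty, while OGD-miR-29 libraries stood at 27.7, 24.4 and 35.6. It fell by 1.57 ± 0.23 on the log2 scale (adjusted p = 0.00203). Hist1h3d, Hist1h3a, Hist1h3b and Hist2h3b were the other called H3 rows, with log2 fold changes of -1.05, -1.44, -1.69 and -1.41.

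H4 genes gave 4 calls. Hist1h4c (ENSMUSG00000060678.5, chr13:23697635-23698454, minus strand) stood at 31.8 and 23.2 CPM in sham-empty, at 18.2, 18.8 and 22.9 in sham-miR-29, at 9.11, 9.03 and 7.50 in OGD-empty, while OGD-miR-29 libraries stood at 20.2, 21.3 and 23.1. Only the OGD-empty libraries stood apart from the rest, and the gene fell by 1.63 ± 0.27 on the log2 scale (adjusted p = 0.00294). Hist1h4b stood at 27.8 and 22.0 CPM in sham-empty and at 9.27, 8.58 and 8.04 in OGD-empty (-1.48 ± 0.29, adjusted p = 0.00724). Hist1h4a, at 15 reads per library on average, had the lowest fold change of the 50 rows, -2.13 ± 0.40, with 10.9 and 8.68 CPM in sham-empty against 2.32, 1.81 and 2.14 in OGD-empty. Hist1h4d had -0.99 ± 0.26 (adjusted p = 0.0351).

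H2B genes gave 5 calls. Hist1h2bc stood at 39.8 and 24.3 CPM in sham-empty, at 23.9, 21.5 and 26.5 in sham-miR-29, at 9.73, 13.5 and 11.8 in OGD-empty, while OGD-miR-29 libraries stood at 19.8, 25.2 and 29.3. OGD-empty did not overlap any other group, and the log2 fold change was -1.45 ± 0.28 (adjusted p = 0.00707). Hist2h2bb, whose promoter is printed above, fell by 1.5 ± 0.30 on the log2 scale (adjusted p = 0.00724), and its neighbour row Gm20628 held 1.70 times its count. Hist3h2ba stood at 44.8 and 44.6 CPM in sham-empty and at 24.6, 24.8 and 24.1 in OGD-empty (-0.86 ± 0.23, adjusted p = 0.0376), with Trim17 at 1.04 times its count. Hist1h2be and Hist1h2bg had -0.96 and -0.97.

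H2A gave the fewest calls for its size, but it also held few rows with many reads. Only Hist1h2ad and Hist3h2a had a mean count of 30 or more (61.6 and 93.6). Over all classes, 5 of the 30 rows under that count were called. Hist1h2ad stood at 20.9 and 26.6 CPM in sham-empty and at 13.3, 8.13 and 11.8 in OGD-empty, and fell by 1.08 ± 0.28 on the log2 scale (adjusted p = 0.0333). Hist1h2ae and Hist1h2an also fell, with -1.43 and -1.76. Hist3h2a, the H2A row with the highest mean CPM, stood at 36.8 and 35.9 CPM in sham-empty and at 21.2, 25.3 and 23.1 in OGD-empty, and was not called (-0.66 ± 0.25, adjusted p = 0.116). Hist1h2ak had -0.42 ± 0.43 (adjusted p = 0.582), and Hist2h2ac, at 1.74 to 1.99 CPM in sham-empty and 1.35 to 2.68 in OGD-empty, had -0.01.

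The calls of this comparison rest on 2 sham-empty libraries. Without sham-empty replicate 1 or 2, which leaves 1 library in that group, the histone median log2 fold change was -1.09 or -1.37. Fewer rows were then called lower, and fewer of all genes. Without OGD-empty replicate 3, 15 rows and 231 of 12056 genes were called lower, against 438 of 12119 genes with all libraries. Leaving out all libraries of replicate 1 gave 0 calls among all genes, with a histone median of -0.98. With the trend of each library along gene length removed, 12 rows were called lower against 1.80% of genes, with a median of -0.88. The length used for histone rows was the distance from gene start to gene end, introns included. Most histone gene models are short, with a median of 532 nt of exon. Hist1h2be and Hist1h2bc, with 4446 and 1156 nt of exon, reach over 37455 and 8710 nt and entered at those lengths.

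The second comparison asks how the virus groups differed after OGD. In OGD-miR-29 against OGD-empty, 26 of 50 histone rows rose and 0 fell, while 17.2% of all genes tested were called higher and 19.9% lower. The log2 fold change was above 0 for 49 of 50 rows, with a median of 0.79 against 0.02 over all genes. Called higher were 3 of 6 H1 rows, 4 of 13 H2A, 8 of 10 H2B, 5 of 9 H3 and 6 of 12 H4. Single-strand stretches with a called row numbered 14 of 24, and those over both strands 8 of 13. This comparison shares the 3 OGD-empty libraries with the first, so values in the one are not independent of those in the other.

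**Figure D3:**
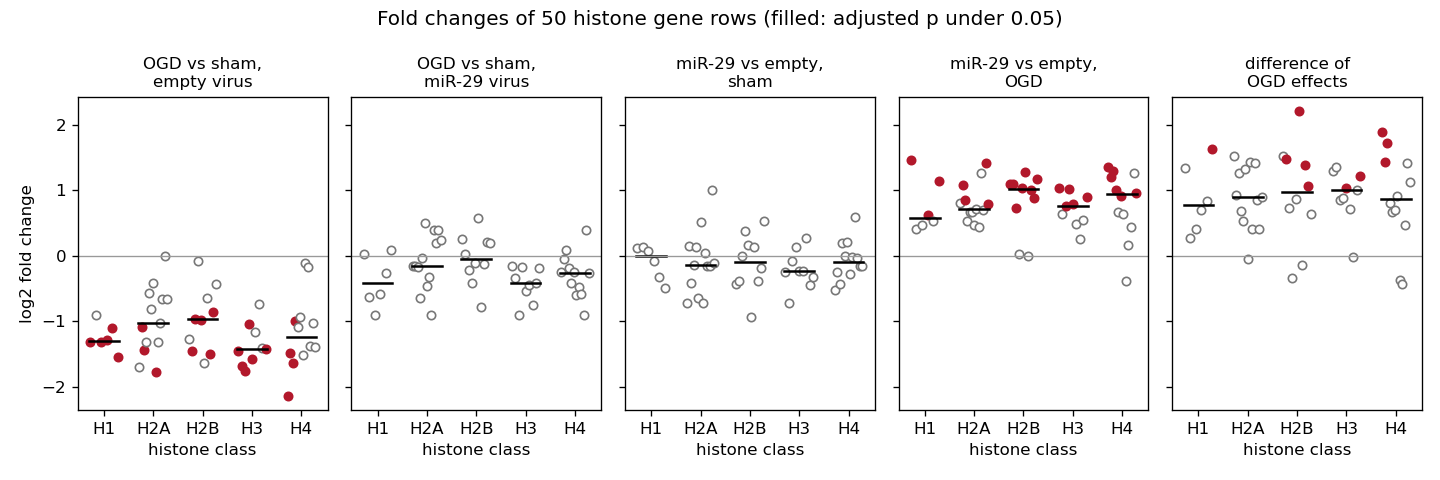
Log2 fold change (vertical axis) of each of the 50 histone rows by class (horizontal axis) in the 4 comparisons and in the difference of the OGD effects, with a bar at the class median and filled points for an adjusted p under 0.05. Points lie below 0 for OGD under the empty virus, mostly above 0 for miR-29 after OGD, and on both sides of 0 in the 2 comparisons without calls.

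Hist1h4c had the lowest adjusted p (0.000652), with the OGD-empty and OGD-miR-29 values given above and a log2 fold change of 1.30 ± 0.23. Hist1h1a stood at 6.18, 4.52 and 3.22 CPM in OGD-empty and at 15.2, 11 and 15.4 in OGD-miR-29, against 13.9 and 11.6 in sham-empty (1.46 ± 0.29, adjusted p = 0.00118). Hist1h4b stood at 19.7, 17.3 and 23.6 CPM in OGD-miR-29 and rose by 1.19 ± 0.25 on the log2 scale (adjusted p = 0.00154). For all 3 genes the OGD-miR-29 libraries overlapped the range of the sham libraries.

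Among H2B rows, Hist1h2bc (1.10 ± 0.25, adjusted p = 0.00249), Hist1h2bg (1.03 ± 0.24) and Hist3h2ba (0.89 ± 0.20) rose, the last standing at 40.2, 46.1 and 50.5 CPM in OGD-miR-29. Hist1h2be, at 20.4, 14 and 17.7 CPM in OGD-empty against 26.1, 32.7 and 29.8 in OGD-miR-29, had 0.73 ± 0.21. Hist1h2bn and Hist1h2bf stood at 0.00 and 0.03 and were not called. Among H2A rows, Hist1h2ad rose to 22.0, 26.8 and 24.0 CPM in OGD-miR-29 (1.09 ± 0.24, adjusted p = 0.00206), and Hist3h2a to 34.5, 41.0 and 44.2 (0.78 ± 0.21, adjusted p = 0.00723). Hist2h2ac had 1.41, and its neighbour Bola1 held 15 times its count.

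Fitted values were also given for the rows with the most reads in H1 and H3. Hist1h1c was not called (0.48 ± 0.22, adjusted p = 0.0909), and Hist1h1d rose by 0.62 ± 0.21 on the log2 scale (adjusted p = 0.0289), at 18.6, 21.7 and 25.0 CPM in OGD-miR-29. Hist1h3c and Hist1h3e rose by 0.77 ± 0.21 and 0.79 ± 0.20, and Hist1h3d, at 14.7, 11.7 and 11.8 CPM in OGD-empty against 23.9, 29.5 and 26.0 in OGD-miR-29, by 1.02 ± 0.22. Hist1h4d, in the same stretch as Hist1h3d, had 1.00 ± 0.22.

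The number of rows called changed most with gene length. With the length trend removed, 7 of 50 rows were called higher and 11.6% of all genes, so that the histone share was near that of all genes, and the histone median was 0.34. Those 7 were Hist1h1a, Hist1h2ad, Hist1h2bc, Hist1h2be, Hist1h2bg, Hist1h4b and Hist1h4c, and Hist1h1c stood at -0.0039. Of these, Hist1h2bc and Hist1h2be entered at the lengths given above. With the trend removed, Hist1h2be went from 0.73 to 0.81 and Hist1h2bc from 1.10 to 0.73. Without all libraries of replicate 1, which leaves 1 sham-empty library in the fit, the histone median was 0.83. Fewer rows were then called higher, and fewer of all genes.

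**Figure D4:**
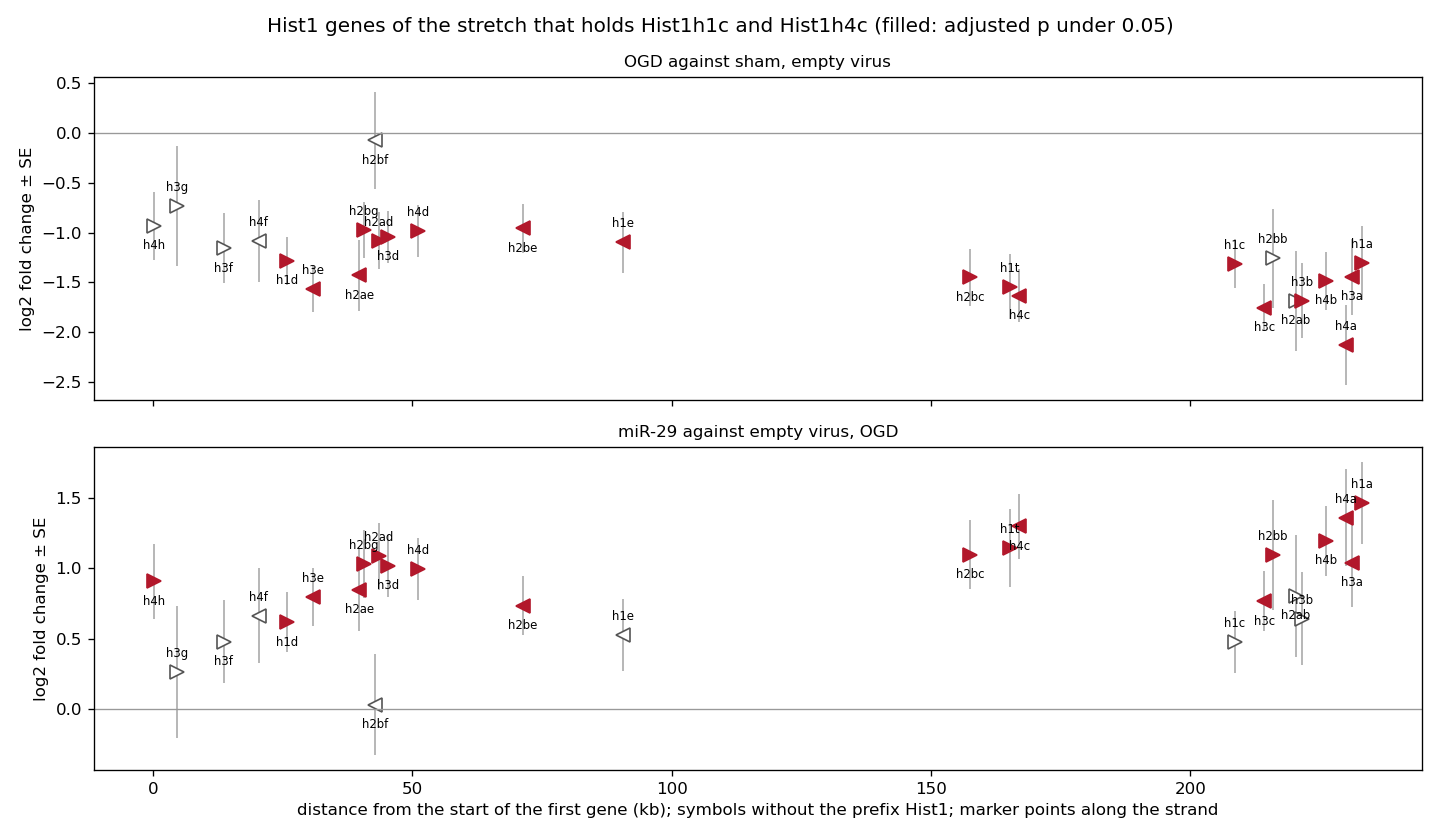
Log2 fold change with its SE (vertical axis) of the Hist1 genes between the start of Hist1h4h and the end of Hist1h1a, by distance along chromosome 13 in kb (horizontal axis), for OGD under the empty virus (top) and miR-29 against empty virus after OGD (bottom). Markers point along the strand, filled markers have an adjusted p under 0.05, and Hist1h2bf lies near 0 in both panels, beside called neighbours.

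In the miR-29 cultures, OGD-miR-29 against sham-miR-29 gave 0 called histone rows in edgeR's test, as in DESeq2 and limma-voom, and 0.0165% of all genes were called. At an unadjusted p under 0.05 there were 7 of 50 histone rows, each of them lower, while 4.95% of all genes were lower at that threshold. The median was -0.21, with 36 of 50 rows below 0. Hist1h1c (-0.90 ± 0.21, adjusted p = 0.227) and Hist1h3c (-0.91 ± 0.20, adjusted p = 0.171) had the lowest values among the rows with the most reads. These were the 2 rows called lower with the length trend removed (-1.0 for each, adjusted p = 0.00857, against 0.151% of genes called), and their regions overlap. Hist1h4c, Hist1h4b and Hist1h2bc stood at 0.09, -0.05 and 0.02.

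Before OGD, sham-miR-29 against sham-empty gave 0 called histone rows in edgeR's test, in DESeq2 and in limma-voom, and 0% of all genes were called. At an unadjusted p under 0.05 there were 0 histone rows and 3.34% of all genes. The median was -0.15, with 33 of 50 rows below 0. Values ran from -0.93 (Hist1h2bk) to 1.01 (Hist2h2ac), rows with mean counts of 12.5 and 9.64.

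The difference between the OGD effects under the 2 viruses was tested as an interaction. It was called for 10 histone rows, all with a higher value under miR-29, against 4.72% of all genes called in that direction, and the median was 0.89 against -0.03 over all genes. Hist1h4c had 1.73 ± 0.34 (adjusted p = 0.00877). The others were Hist1h1t, Hist1h4a, Hist1h4b, Hist1h2bc, Hist1h2bk, Hist2h2bb, Hist3h2ba, Hist1h3e and Hist2h3b. None of 13 H2A rows was called, most of which had a mean count under 30. Over all classes the interaction was called for 8 of 20 rows with a mean count of 30 or more, and for 2 of 30 below that. Without sham-empty replicate 1 or 2, which leaves 1 library in that group, the histone median was 0.90 or 1.01. Fewer rows were then called, and fewer of all genes. The histone count was 6 or 1 without sham-miR-29 replicate 1 or 2, with 393 or 221 of all genes called higher. With all libraries 572 genes were called higher. The histone count was 6 or 2 without OGD-miR-29 replicate 2 or 3, with 432 or 281 of all genes. After removal of the length trend it was 1, Hist1h4c (1.19 ± 0.34, adjusted p = 0.0337, against 2.80% of genes).

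**Figure D5:**
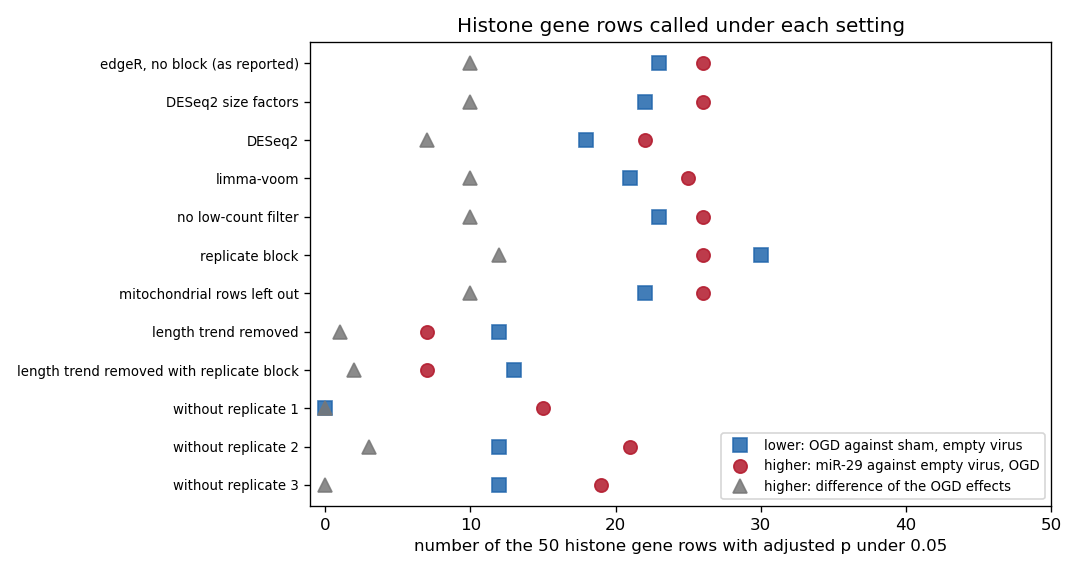
Number of the 50 histone rows called at an adjusted p under 0.05 (horizontal axis) under each setting (vertical axis), for rows lower with OGD under the empty virus (squares), higher with miR-29 after OGD (circles) and higher in the difference of the OGD effects (triangles). Other scalings, tools and filters gave counts of 18 to 23 and 22 to 26 for the first and second, the replicate block gave 30 and 26, and removing the length trend gave 12 or 13 and 7. The count of 18 is from DESeq2, which gave an adjusted p to only 21 of the 50 rows there and in the difference of the OGD effects.

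The rows were also counted apart by annotated model, shared sequence and position. Of the 34 members with a stem-loop in their model, 17 fell with OGD under the empty virus (median -1.27), and of the 16 without, 6 fell (median -0.86). Some of these 16 models, such as that of Hist1h4k (312 nt), may stop short of the stem-loop. Of the 21 members that share over 0.5 of their 50-base stretches with another gene, 6 fell (median -1.31), and of the other 29, 17 fell (median -1.16). The 5 members with no other gene in their region on either strand (Hist1h2bn, Hist1h4j, Hist1h4k, Hist1h4m and Hist1h4n) gave 0 calls in any comparison. Their median was -0.64 for OGD under the empty virus, against -1.21 over all 50 rows. For miR-29 against empty virus after OGD it was 0.17, against 0.79. The interaction gave a median of -0.14, against 0.89, with 3 of the 5 below 0. The mean counts of these 5 members were 10.3 to 19.2, and of the 30 members with a mean count under 30, 5 were called with OGD under the empty virus. Hist1h2bn, Hist1h4k, Hist1h4m and Hist1h4n also shared 71.5% to 89.8% of their 50-base stretches with other genes, and Hist1h4j 24.6%. The regions of Hist1h4m and Hist1h4n overlap each other. These counts are descriptions, and the differences between the subsets were not tested.

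Of 15 measured genes (17 listed) that drive histone transcription or process histone mRNA, 0 were called with OGD under the empty virus in edgeR's test (0 at an unadjusted p under 0.05, median -0.24). Of all 12119 genes tested, 2876 had an unadjusted p under 0.05 in that comparison. Slbp, the stem-loop binding protein, stood at 6.95 ± 0.0119 CPM (SD, n = 2) in sham-empty and 6.04 ± 1.86 (SD, n = 3) in OGD-empty, with a log2 fold change of -0.32 ± 0.44 (adjusted p = 0.692). Npat stood at 20.5 ± 1.97 and 17.3 ± 1.82 CPM (-0.24 ± 0.27, adjusted p = 0.618). In OGD-miR-29 against OGD-empty, 2 of the 15 rose and 2 fell, no larger a share than the 17.2% higher and 19.9% lower among all genes. Mif4gd, an SLBP partner in translation, and Cpsf3, the endonuclease that cuts histone pre-mRNA, rose (1.09 and 0.83). Pou2f1, which binds the octamer, and Casp8ap2, a histone locus body protein, fell (-1.48 and -1.19). Slbp (0.55 ± 0.32) and Npat (0.08 ± 0.22) were not called.

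Replication-independent histone variants, which are made outside S phase, were measured for 10 of 14 listed genes. Under the empty virus 2 fell with OGD, H3f3b (-0.79 ± 0.22, adjusted p = 0.0398), a replication-independent H3 gene, and the linker histone H1f0 (-1.01 ± 0.29, adjusted p = 0.0478). Over all genes, 3.61% were called lower with OGD under the empty virus. In OGD-miR-29 against OGD-empty, H3f3b, H3f3a and H1f0 rose (0.74, 0.80 and 0.66) and H1foo fell (-1.10). Among all genes, 17.2% were called higher and 19.9% lower there. Of 18 measured of 20 listed histone chaperones, 0 were called with OGD under the empty virus. There 4 had an unadjusted p under 0.05, against 2876 of all 12119 genes. In OGD-miR-29 against OGD-empty, 2 chaperones rose and 3 fell, no larger a share than the 17.2% higher and 19.9% lower among all genes.

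Most of the cell cycle genes listed had no row: 14 of 42 DNA replication and S phase genes and 8 of 21 G2 and mitosis genes were measured. Under the empty virus, the clamp loader subunit Rfc4 (-1.27 ± 0.26) and the cytokinesis kinesin Kif23 (-1.29 ± 0.27) fell with OGD, and the proliferation marker Mki67 rose (2.10 ± 0.60, adjusted p = 0.0455). Mki67 stood at only 0.579 and 3.98 CPM in sham-empty, against 8.04 to 8.18 in OGD-empty, so its rise rests on few sham reads. In OGD-miR-29 against OGD-empty, 2 of the 14 S phase genes rose (Rfc4, 1.28, and the licensing factor Cdt1, 0.88) and 2 fell (the polymerase subunit Pola1, -1.68, and Gins2, -1.37). In the same comparison 2 of the 8 G2 and mitosis genes rose (Kif23, 1.35, and the kinase Aurkb, 1.20) and Mki67 fell (-1.06). Among all genes in that comparison, 17.2% were called higher and 19.9% lower. The other measured genes of both lists gave no call with OGD under the empty virus.

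The summed levels of cell type markers are given for sham-empty, OGD-empty and OGD-miR-29, and then for sham-miR-29. The 11 neuron markers summed to 1025 to 1100 CPM in sham-empty, 1262 to 1492 in OGD-empty and 894 to 1050 in OGD-miR-29. The 7 astrocyte markers summed to 71.2 to 80.6, 99.4 to 119 and 69.2 to 84.1 CPM in these groups, with Gfap not among the rows. The 3 microglia markers summed to 30.7 to 40.8, 18.8 to 28 and 32.1 to 36.1, and the 3 neural progenitor markers to 21.9 to 39.4, 22.6 to 31.6 and 34.1 to 45.3. The 3 oligodendrocyte lineage markers summed to 11.9 to 12.2, 8.58 to 9.73 and 9.62 to 14.2. In sham-miR-29 the neuron markers summed to 1013 to 1221 CPM. The astrocyte markers summed to 90.0 to 97.6 there, above sham-empty and OGD-miR-29. The microglia, neural progenitor and oligodendrocyte lineage markers summed to 28.1 to 39.8, 26.1 to 49.4 and 12.5 to 14.6 in sham-miR-29. With OGD under the empty virus 0 of the 27 markers measured were called in edgeR's test. At an unadjusted p under 0.05 there were 4, against 2876 of all 12119 genes. In OGD-miR-29 against OGD-empty, 3 of 11 neuron markers rose and 5 fell, against 17.2% higher and 19.9% lower among all genes. Those that rose were Tubb3, Nefl and Nefm, with means of 78.0, 44.9 and 52.1 CPM in OGD-empty. Their means in OGD-miR-29 were 142, 95.9 and 87.2 CPM. Among those that fell were Syt1 (-1.82), Rbfox3 (-1.75) and Map2 (-1.16). The astrocyte marker Slc1a2 fell (-1.18), while Sox10 of the oligodendrocyte lineage (1.14) and the microglia marker Aif1 (1.54) rose. The part of cell composition in the histone result was not tested.

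In the authors' deposited table for OGD-empty against sham-empty, the log2 fold change was below 0 for 50 of 50 histone rows, with a median of -1.20. In that same deposited table, 0 rows had a false discovery rate under 0.05 and 32 had a p-value under 0.05, with a smallest false discovery rate of 0.0649. In the authors' deposited table for OGD-miR-29 against sham-empty, 39 of 50 rows were below 0, with a median of -0.44, and 3 had a p-value under 0.05. Whether the sham-empty column without read counts entered these tables is not given in the sources used here.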

How the data were processed

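RNA was measured in 12 samples. The authors deposited unnormalized read counts by gene symbol and 2 comparison tables. Per the file headers, these tables give each gene a log2 fold change and mean log2 CPM, with a score (likelihood ratio), p-value and false discovery rate. The submitters' processing notes name STAR 2.5.0a, featureCounts 1.4.3-p1, edgeR and mm10, with no role or order. Strand setting and counting region are not given in the sources used here. For sham-empty replicate 3 the column summed to 22859, and for 47 of the 50 histone rows its value was the number of same-strand genes within the gene and 10 kb downstream, so it was not used. The design had assumed 12 libraries of counts. Columns of samples with no label match numbered 0.

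All genes were fitted together with edgeR 4.0.16 (R 4.3.3; TMM, filterByExpr, robust quasi-likelihood F test, 4 group means, 11 libraries). P-values were adjusted by Benjamini-Hochberg over the 12119 genes that passed the filter, with calls at an adjusted p under 0.05. All 50 histone rows passed the filter. Alternatives were DESeq2 1.42.0, limma-voom (limma 3.58.1), other scaling and filters, a replicate block, removal of each library's trend along gene length (a lowess of span 0.5, over genes with an annotated length), the compared groups alone, leaving out libraries, and counting overlapping regions once.

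Described by name were the 3 rows of each class with the highest mean CPM, and in each comparison and direction the 3 called rows with the lowest adjusted p. From other lists, up to 3 called genes per comparison were named, with Slbp and Npat always. Other rows named were chosen after their values were seen. The members and lists were chosen with earlier results of these data known. The labels say that replicate numbers mark cultures dissected on distinct days, which pairs the samples. Deviations from the group means of same-numbered libraries in different groups had a median correlation of 0.0067 (-0.090 to 0.232, 15 pairs). Stem-loops and positions come from GENCODE M21, and promoters from RefSeq (GRCm38.p6).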

Additional observations from a re-analysis of the deposited data

Results flagged for a closer look

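For 10 histone rows the log2 fold change with OGD differed between the viruses, by the interaction term of edgeR's quasi-likelihood test adjusted over all genes. The difference, miR-29 minus empty virus, was 1.73 for Hist1h4c (adjusted p = 0.00877), 1.47 for Hist1h2bc (0.0207), 1.63 for Hist1h1t (0.0216), 1.44 for Hist1h4b (0.0241) and 1.88 for Hist1h4a (0.0259). It was 1.38 for Hist2h2bb (adjusted p = 0.0290), 2.21 for Hist1h2bk (0.0290), 1.07 for Hist3h2ba (0.0347), 1.03 for Hist1h3e (0.0383) and 1.22 for Hist2h3b (0.0418). Hist1h4c, Hist1h2bc and Hist1h1t lie in 1 stretch, as do Hist1h4a and Hist1h4b, and Hist2h2bb and Hist2h3b, so these are not 10 separate measurements.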

How the results depend on the processing

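The direction of the histone medians was the same under every setting run for OGD under the empty virus, for miR-29 against empty virus after OGD and for their interaction, while the numbers of called rows were not. For OGD under the empty virus (23 rows), 12 were called with the length trend removed, 13 with both this removal and the replicate block, 11 of 25 tested with the compared groups alone, 11 with overlapping regions on 1 strand counted once, and 6 counted once over either strand. The last was chosen after seeing the data. Leaving out libraries of the compared groups gave at most 20, and fewer of all genes were then called lower than with all libraries. The fewest rows were called without all libraries of replicate 1. Where 1 sham-empty library was left, it is assumed to vary like the other groups.

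For OGD under miR-29 (0 rows), 2 were called with the length trend removed, with and without the block, and leaving out libraries of its groups gave 0 to 2. For miR-29 against empty virus after OGD (26 rows), 7 were called with the length trend removed, with and without the block, 14 and 8 with overlapping regions counted once on 1 or either strand, and 15 to 26 when libraries of the compared groups were left out. Hist1h1c then reversed, to -0.0039 with the length trend removed. For the interaction (10 rows), 1 was called with the length trend removed, 2 with the block added, 6 with regions counted once over either strand, and 0 to 11 when libraries were left out. Calls among all genes changed as well when libraries were left out. The cause was not tested where a row count changed with the length trend. Other scalings, tools and filters and the block moved no count by more than 1.5 times. DESeq2 gave an adjusted p to only 21 of the 50 rows for OGD under the empty virus (18 called) and for the interaction (7 called).

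With the replicate block alone, which pairs libraries of the same dissection number, the counts were 30, 0, 0, 26 and 12 for OGD under the empty virus, OGD under miR-29, miR-29 in sham, miR-29 after OGD and the interaction. The calls without the block were kept: 23 of 23, 26 of 26 and 10 of 10. Depth was low, with a median histone row count of 9 to 37 per library. Of the 30 rows with a mean count under 30, 5 were called with OGD under the empty virus.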
